A study of Mus musculus with 3 samples.

Results

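The genes of mitotic entry described here are 10, namely Cdk1, the cyclin genes Ccna2, Ccnb1, Ccnb2 and Ccnf, the activator gene Cdc20, the phosphatase genes Cdc25b and Cdc25c, and the kinase genes Plk1 and Aurka. They were picked by gene symbol, and the table of 16977 genes held a row for each of the 10. All 10 averaged 10 or more normalised reads over the libraries and so entered the test.

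Entry into mitosis is driven by cyclin-dependent kinase 1 (CDK1), which is active only when bound to cyclin A or cyclin B. CDC25 phosphatases remove the inhibitory phosphates from CDK1, and the kinases PLK1 and Aurora A promote that step. The anaphase-promoting complex, an E3 ubiquitin ligase whose activator is CDC20, later ends mitosis by marking cyclin B for degradation. Transcripts of these genes are low in G1 and accumulate in G2 and M phase, so in a dividing population such as neural stem cells they are abundant.

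The cells were neural stem cells from C57BL/6J mouse embryos at embryonic day 12.5, grown as cultures with EGF and FGF. They carried a lentivirus for a short hairpin RNA, either against PHF2 (shPHF2, 2 libraries, which the series calls biological replicates) or a control hairpin (shControl, 1 library). PHF2, which has a PHD finger, belongs to the histone demethylases that act on histone H3 lysine 9. Total RNA without ribosomal RNA was sequenced, with 37171026 and 26302177 reads in genes in shPHF2 replicates 1 and 2 and 32898139 in shControl. With 1 shControl library, no spread among control cultures can be measured. The sources used here do not give whether the shPHF2 replicates used 1 hairpin or several.

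Values are normalised reads, that is, read counts after division by each library's size factor. Phf2 had 985 and 714 normalised reads in shPHF2 replicates 1 and 2, against 2593 in shControl, or 38.0% and 27.5% of the control. The shPHF2 library with the lower Phf2 value is thus replicate 2. Of 9 stem cell markers, Nes, Sox2, Vim, Fabp7 and Slc1a3 were abundant in every library, with at least 5893 normalised reads each. Hes5 was the lowest of the 9, with at most 39.9. Sox2 was the 1 of these 9 that passed the test, and it rose, with 10114 and 8819 normalised reads in shPHF2 replicates 1 and 2, against 5893 in shControl (log2 fold change 0.68, SE 0.19; limma, adjusted p = 0.048). The 4 fibroblast markers in the table, Col1a1, Col1a2, Col3a1 and Dcn, had fewer than 10 normalised reads in every library. The 4 astrocyte markers summed to 1263 and 1917 normalised reads in shPHF2 replicates 1 and 2, against 478 in shControl. Of these 4, S100b alone passed the test, with 1094 and 850 normalised reads in shPHF2 replicates 1 and 2, against 331 in shControl. Aldh1l1 had 152 and 1009 against 146, so the higher sum in replicate 2 lay mostly in that gene. Aqp4 was at 0 in shControl. The 5 neuron markers tested summed to 38275 and 39028 normalised reads in shPHF2 replicates 1 and 2, against 60308 in shControl, most of it Map2, and none of the 5 passed. Tubb3, with 198 and 346 normalised reads in shPHF2 against 104 in shControl, and Neurod1, with 26.7 and 44.6 against 3.99, had values in the other direction. Rbfox3 was lower in both shPHF2 libraries, with 87.5 and 13.3 against 142. Dcx, with 27.5 and 106 against 38.9, was lower in replicate 1 and higher in replicate 2. The part of these marker differences in the results below was not tested.

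Promoters of these genes are known in human and mouse cells for a pair of short elements. One is CCAAT, which NF-Y binds, and the other is TTTGAA, the cell cycle genes homology region that the MuvB complex binds through LIN54. RefSeq promoters (GRCm38.p6), 250 bases before to 50 bases after the start, were matched by symbol for 8 of the 10 genes, all but Ccna2 and Cdc25c. Both letter strings were searched on both strands, and in these 8 promoters no match of one overlapped a match of the other. CCAAT or its reverse complement stood in all 8 promoters, and at least 2 copies stood in 6 of them. TTTGAA or its reverse complement stood in 6 of the 8, in each case downstream of at least 1 CCAAT. Over all 32851 RefSeq promoters of this length, 37.4% held CCAAT at least once, 11.7% held it at least 2 times, 17.9% held TTTGAA, and 3.74% held TTTGAA downstream of a CCAAT. The rarer form TTCGAA, read on both strands, stood in 1 of the 8, Cdc25b, and in 1.56% of all promoters.

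The promoters of 4 genes are printed because their genes span the range of fold changes described below, from Cdk1 and Ccnb1 to Ccnb2 and Cdc25b. Capitals mark CCAAT and TTTGAA or their reverse complements, ATTGG and TTCAAA, and TTCGAA is left in lower case. The Cdk1 promoter lies at chr10:69352863-69353162 on the minus strand, Ccnb1 at chr13:100786437-100786736 on the minus strand, Ccnb2 at chr9:70421505-70421804 on the minus strand and Cdc25b at chr2:131186698-131186997 on the plus strand.
Cdk1: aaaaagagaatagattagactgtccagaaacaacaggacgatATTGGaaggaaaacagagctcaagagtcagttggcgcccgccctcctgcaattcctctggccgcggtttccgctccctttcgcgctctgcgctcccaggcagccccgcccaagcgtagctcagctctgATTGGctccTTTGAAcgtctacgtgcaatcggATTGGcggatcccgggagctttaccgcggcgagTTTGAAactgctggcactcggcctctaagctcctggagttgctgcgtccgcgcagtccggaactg
Ccnb1: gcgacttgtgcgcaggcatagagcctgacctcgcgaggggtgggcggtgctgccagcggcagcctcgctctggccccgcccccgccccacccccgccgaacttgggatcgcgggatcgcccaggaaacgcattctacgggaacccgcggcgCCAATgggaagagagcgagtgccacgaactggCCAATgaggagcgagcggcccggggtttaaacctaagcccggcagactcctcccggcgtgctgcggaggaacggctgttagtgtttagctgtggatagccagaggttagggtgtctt
Ccnb2: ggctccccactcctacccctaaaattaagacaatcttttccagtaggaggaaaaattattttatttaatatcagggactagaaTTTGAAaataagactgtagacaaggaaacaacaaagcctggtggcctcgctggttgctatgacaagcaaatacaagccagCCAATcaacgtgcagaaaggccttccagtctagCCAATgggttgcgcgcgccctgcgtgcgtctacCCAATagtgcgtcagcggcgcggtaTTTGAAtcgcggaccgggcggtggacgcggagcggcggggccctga
Cdc25b: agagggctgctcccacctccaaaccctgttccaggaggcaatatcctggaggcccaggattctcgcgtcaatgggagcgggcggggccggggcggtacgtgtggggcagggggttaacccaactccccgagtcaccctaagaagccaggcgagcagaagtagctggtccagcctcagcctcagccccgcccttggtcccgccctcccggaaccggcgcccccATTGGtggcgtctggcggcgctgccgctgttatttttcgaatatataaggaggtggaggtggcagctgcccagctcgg

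In the Cdk1 promoter, copies of TTTGAA begin 71 and 15 bases before the annotated start. The Ccnb2 promoter has a copy 167 bases before and another 4 bases after the start, with 3 CCAAT copies between them. The Ccnb1 promoter holds CCAAT 2 times and neither TTTGAA nor TTCGAA within the 300 bases. Other forms of the cell cycle genes homology region were not searched for. Log2 fold changes were -1.40 for Cdk1, -1.18 for Ccnb1, -0.48 for Ccnb2 and -0.31 for Cdc25b. The relation of the CCAAT and TTTGAA strings to these fold changes was not tested. A match of letters is a description and does not show that a factor binds.

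All 10 genes had lower values in both shPHF2 libraries than in shControl. Summed over the 10 genes, there were 29857 and 21611 normalised reads in shPHF2 replicates 1 and 2, against 51105 in shControl, which is 58.4% and 42.3% of the control. Over all 14148 genes tested, 41.8% had both shPHF2 values below shControl. In the test, 4 of the 10 fell, namely Cdk1, Ccna2, Ccnb1 and Ccnf, and none rose (limma on log2(normalised reads + 1), Benjamini-Hochberg adjusted p under 0.05). Over all genes tested, 7.11% were called lower in shPHF2 and 7.22% higher, and of 8849 genes averaging 500 or more normalised reads, 10.5% were called lower. The median log2 fold change of the 10 was -0.82, beside -0.01 for all genes tested. In such bulk libraries, fewer cells in G2 and M phase and less RNA of these genes per cell cannot be told apart.

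**Figure D1:**
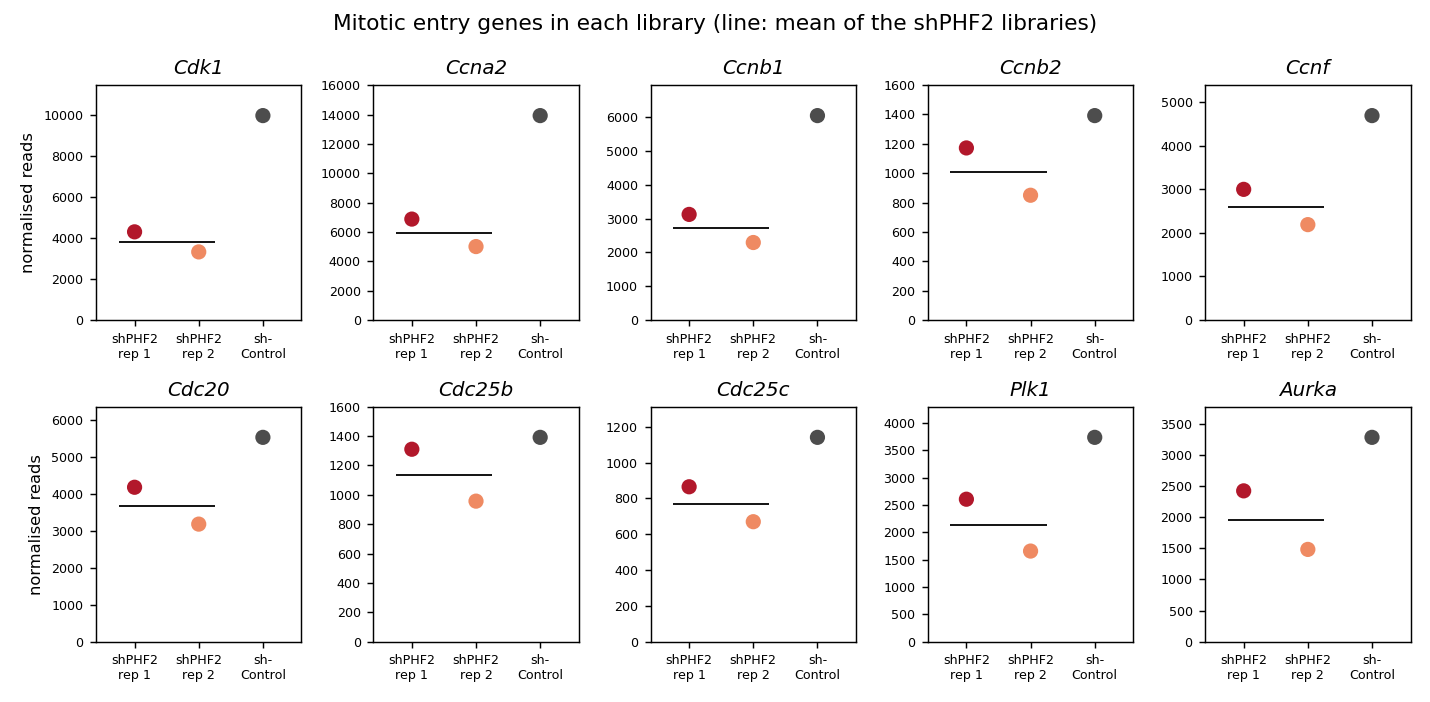
Normalised reads (y axis, from 0) of each gene in shPHF2 replicate 1, shPHF2 replicate 2 and shControl, 1 point a library, with a line at the mean of the shPHF2 libraries. In all 10 panels the shControl point is highest and shPHF2 replicate 2 is lowest.

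Cdk1 encodes the kinase at the centre of mitotic entry (chromosome 10, 69335146 to 69352938, minus strand, GRCm38). It had 4294 and 3317 normalised reads in shPHF2 replicates 1 and 2, against 9953 in shControl. Both shPHF2 values lie well under the control, at 43.1% and 33.3% of it. The shPHF2 mean was 3805 ± 691 (SD, n = 2), and the log2 fold change was -1.40 with an SE of 0.21 (limma, adjusted p = 0.0085). It was the largest fall of the 10, and 2.37% of all genes tested had a log2 fold change as low or lower.

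Ccna2 encodes cyclin A2, which binds CDK2 in S phase and CDK1 in G2 (chromosome 3, 36564865 to 36572150, minus strand). It had 6885 and 5011 normalised reads in shPHF2 replicates 1 and 2, against 13943 in shControl. The control value is the highest of any of the 10 genes, and both shPHF2 values are under 50% of it, at 49.4% and 35.9%. In the test, the log2 fold change was -1.25 with an SE of 0.23 (limma, adjusted p = 0.014). Of the annotated Ccna2 exons, 510 bases overlap Exosc9 on the opposite strand, and the strand setting of the counting is not given.

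Ccnb1 encodes cyclin B1, the main partner of CDK1 at mitotic entry (chromosome 13, 100778650 to 100786570, minus strand). It had 3121 and 2291 normalised reads in shPHF2 replicates 1 and 2, against 6041 in shControl. That is 51.7% and 37.9% of the control. This gave a log2 fold change of -1.18 with an SE of 0.22 (limma, adjusted p = 0.016).

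Ccnb2 encodes cyclin B2, the second B-type cyclin, which is found at the Golgi in human cells (chromosome 9, 70407692 to 70421547, minus strand). It had 1172 and 850 normalised reads in shPHF2 replicates 1 and 2, against 1393 in shControl. Both lie below the control, at 84.2% and 61.0% of it, so the gap to the control in replicate 1 is smaller than the gap between the replicates. The log2 fold change was -0.48 with an SE of 0.24 and did not pass the test (limma, adjusted p = 0.22). Whether Ccnb1 and Ccnb2 differ from each other in fold change was not tested. Annotated pseudogenes named Ccnb1-ps and Ccnb2-ps exist, and reads shared with such copies would make both values less certain.

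Ccnf encodes cyclin F, an F-box protein that recognises substrates for the SCF ubiquitin ligase and does not activate a CDK (chromosome 17, 24222198 to 24251484, minus strand). It had 2997 and 2188 normalised reads in shPHF2 replicates 1 and 2, against 4689 in shControl. The values were 63.9% and 46.7% of the control. Its log2 fold change was -0.87 with an SE of 0.22 (limma, adjusted p = 0.038), and the call was lost when libraries were scaled to total reads in genes (limma, adjusted p = 0.067).

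Plk1 encodes Polo-like kinase 1, which activates CDC25 and acts at centrosomes and kinetochores (chromosome 7, 122159439 to 122169873, plus strand). It had 2605 and 1658 normalised reads in shPHF2 replicates 1 and 2, against 3736 in shControl. The 2 shPHF2 values stood at 69.7% and 44.4% of the control, a wide gap between replicates. The log2 fold change was -0.85 with an SE of 0.27 (limma, adjusted p = 0.071). In the authors' deposited table Plk1 had an adjusted p of 0.047, and that table called 5 of the 10 genes lower, Plk1 beside the 4 above, and 7.96% of all genes with an adjusted p.

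Aurka encodes Aurora A, the centrosomal kinase that activates PLK1 (chromosome 2, 172356190 to 172370535, minus strand). It had 2421 and 1482 normalised reads in shPHF2 replicates 1 and 2, against 3279 in shControl. The values were 73.8% and 45.2% of the control. Its log2 fold change was -0.79 with an SE of 0.28, the largest SE of the 10, and did not pass the test (limma, adjusted p = 0.097).

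Cdc20 encodes the mitotic activator of the anaphase-promoting complex (chromosome 4, 118432901 to 118437352, minus strand). It had 4186 and 3188 normalised reads in shPHF2 replicates 1 and 2, against 5538 in shControl. Both shPHF2 values lie below the control, at 75.6% and 57.6% of it. Its log2 fold change was -0.60 with an SE of 0.21 and did not pass the test (limma, adjusted p = 0.094).

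The phosphatase genes had the smallest differences together with Ccnb2. Cdc25b encodes a phosphatase that activates CDK1 with cyclin B, first at the centrosome (chromosome 2, 131186949 to 131198497, plus strand). It had 1311 and 957 normalised reads in shPHF2 replicates 1 and 2, against 1392 in shControl, so replicate 1 was close to the control at 94.2% and replicate 2 was at 68.8%. The 95% counting interval of the ratio of replicate 1 to shControl, 0.876 to 1.01, includes 1, which was so for no other of the 10. The log2 fold change was -0.31 with an SE of 0.24 (limma, adjusted p = 0.42).

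Cdc25c, on chromosome 18, encodes the phosphatase that PLK1 and CDK1 phosphorylate at mitotic entry. It had 865 and 670 normalised reads in shPHF2 replicates 1 and 2, against 1141 in shControl. These are the lowest values of the 10 in each library, at 75.8% and 58.7% of the control. The log2 fold change was -0.58 with an SE of 0.24 and did not pass the test (limma, adjusted p = 0.14). Of its annotated exons, 623 bases overlap the gene Gm3550 on the opposite strand.

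**Figure D2:**
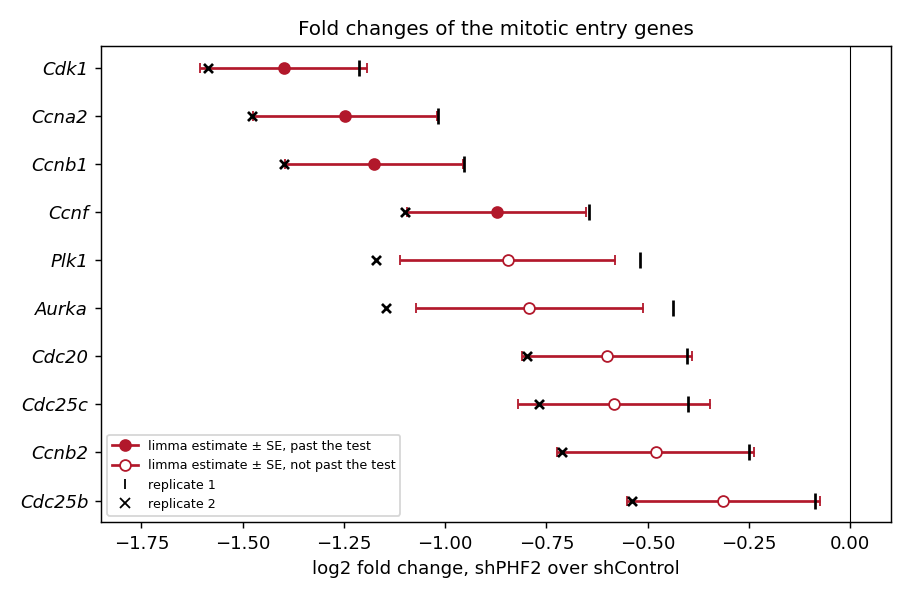
Log2 fold change of shPHF2 over shControl (x axis) for each of the 10 genes, with the limma estimate and its SE as a circle and bar, replicate 1 as a tick and replicate 2 as a cross. The 4 filled circles, Cdk1, Ccna2, Ccnb1 and Ccnf, passed the test, and estimates run from -1.40 for Cdk1 to -0.31 for Cdc25b.

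Of the 10 genes, 8 had an unadjusted p under 0.05 by limma, as did 4414 of all 14148 genes tested, in either direction. After adjustment, 4 of the 10 passed by limma and by edgeR, against 5 by DESeq2 (edgeR called 8.06% and DESeq2 6.91% of all genes lower). By contrast, limma without the mean-variance trend, with quantile normalization or with no filter on low values called 0 of the 10. These settings called 0 of all genes too. Unadjusted p was under 0.05 for 3, 4 and 4 of the 10, in that order. Over all genes it was so for 3300 of 14148, 3700 of 14148 and 3893 of 16977. At 1 residual degree of freedom the spread comes from the 2 shPHF2 libraries alone, and a p that misses the threshold does not show that a gene was unchanged.

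The shPHF2 replicates differed from each other in the same direction for all 10 genes, with replicate 2 the lower. Over all genes tested, 49% had a lower value in replicate 2 than in replicate 1, and 23.8% had the order seen in all 10 genes, with shControl highest and replicate 2 lowest. The log2 difference of replicate 2 minus replicate 1 ran from -0.71 for Aurka to -0.37 for Cdc25c, with a median of -0.45, beside a median of 0.01 over all genes. The median size of that difference over all genes, without its sign, was 0.21, and each of the 10 exceeded it. With 1 library on each side, this difference has no test over samples.

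As a ratio, replicate 2 over replicate 1 was 0.612 for Aurka, with a 95% counting interval of 0.572 to 0.654, and 0.636 for Plk1, with an interval of 0.597 to 0.678. The other 8 genes lay close together, at 0.725 for Ccnb2 up to 0.775 for Cdc25c, whose interval reached 0.860. The interval of Aurka met none of the intervals of these 8, and that of Plk1 met those of Ccnb2 and Cdc25b alone. Phf2 itself had a ratio of 0.725, with an interval of 0.656 to 0.801. Intervals cover counting error only, and replicates differ by more than counting error over the table as a whole. Of all genes tested, 6.19% had a log2 difference between replicates as low as that of Aurka or lower, and 15.3% as low as that of Cdc25c or lower.

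The size of the change depended on the replicate. The median log2 fold change of the 10 was -0.48 in replicate 1 and -1.12 in replicate 2, while the medians of all genes tested were 0.00 and -0.01. In replicate 1 the 10 genes ran from -1.21 for Cdk1 to -0.09 for Cdc25b, and in replicate 2 from -1.59 to -0.54 for the same genes at the ends. In replicate 2, reads of low alignment quality made up 20.5% of the reads in the table, against 15.9% in replicate 1, and the share in shControl lay between these. Reads in no annotated feature made up 38.7% in replicate 2, against 44.0% in replicate 1 and 42.7% in shControl. The part of these shares in the difference between replicates was not tested.

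**Figure D3:**
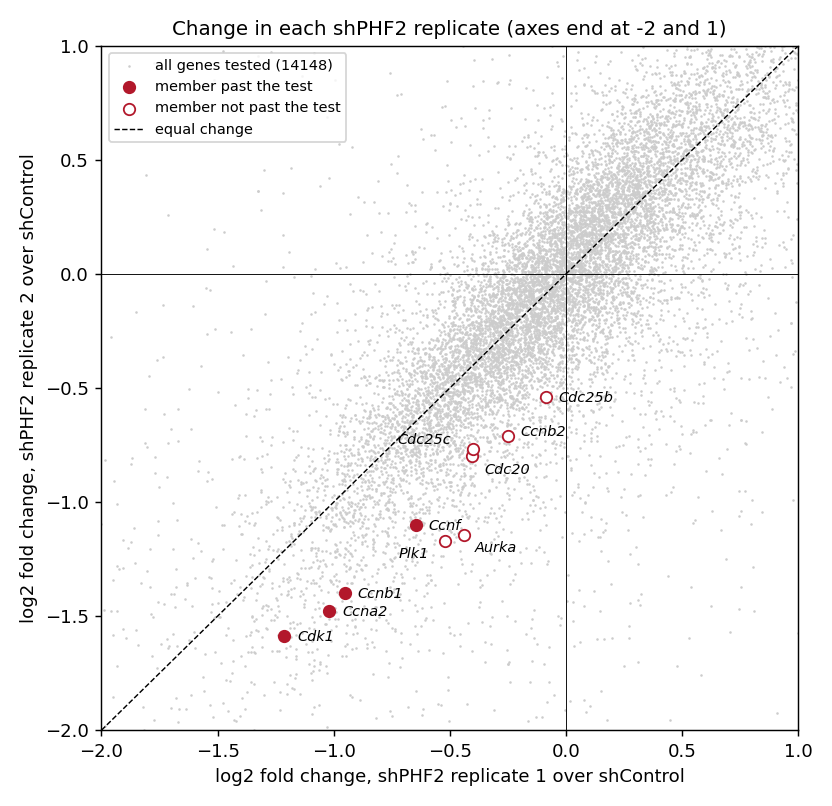
Log2 fold change over shControl in shPHF2 replicate 1 (x axis) and replicate 2 (y axis), with the 14148 genes tested as grey points and the 10 mitotic entry genes as circles, filled where the test was passed. All 10 circles lie to the lower left of the origin and under the dashed line of equal change, with Plk1 and Aurka farthest from that line.

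Levels were compared between genes per length, as normalised reads per kilobase of annotated exon (GENCODE M21). In shControl the order was Ccna2 at 3415, Cdc20 at 2965, Cdk1 at 2017, Plk1 at 1699, Ccnb1 at 1433, Aurka at 1296, Ccnb2 at 910, Ccnf at 601, Cdc25b at 373 and Cdc25c at 232 per kilobase. In shPHF2 the highest level was that of Cdc20, with 2241 and 1706 per kilobase in replicates 1 and 2, followed by Ccna2 with 1686 and 1227. The ranges of Plk1, Aurka, Cdk1, Ccnb2 and Ccnb1 overlapped each neighbour in the shPHF2 order, between 543 and 1185 per kilobase. Those of Ccnf and Cdc25b overlapped too, and Cdc25c was lowest with 176 and 136. Exon length is taken over all annotated transcripts of a gene, which may exceed the transcripts these cells make.

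Other genes of the pathway were described from lists of known function. Among CDK1 regulators, 5 of 10 tested fell and none rose, beside 7.11% of all genes tested called lower in shPHF2. Pkmyt1, which encodes an inhibitory kinase of CDK1, had 328 and 262 normalised reads in shPHF2 replicates 1 and 2, against 815 in shControl, with a log2 fold change of -1.47 and an SE of 0.28 (limma, adjusted p = 0.016). Cks2 and Cks1b, which encode small CDK-binding subunits, fell too, at log2 fold changes of -1.08 and -0.94, and the remaining 2 were Wee1, the other inhibitory kinase gene, and Cdc25a. Both activating and inhibitory regulators of CDK1 are among those that fell. Over the list the median was -0.76 on the log2 scale. Cdkn1a, the CDK inhibitor p21 gene, had 9071 and 14043 normalised reads in shPHF2 replicates 1 and 2, against 6819 in shControl, and did not pass (limma, adjusted p = 0.11).

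Of 11 partners of PLK1, Aurora A and the Greatwall kinase, 2 fell and none rose, with a list median of -0.21. Over all genes tested, 7.11% were called lower, and the share in this short list was not tested against that. The 2 that fell were Bora, the Aurora A cofactor that activates PLK1, with 938 and 604 normalised reads in shPHF2 replicates 1 and 2, against 1760 in shControl (log2 fold change -1.22, SE 0.28; limma, adjusted p = 0.028), and the centrosome scaffold gene Cep192 at -0.81 on the log2 scale, with an SE of 0.22 (limma, adjusted p = 0.045). Both calls were lost when libraries were scaled to total reads in genes and after a correction for GC content and length. The PP2A subunit genes Ppp2ca and Ppp2r1a had log2 fold changes of 0.24 and 0.22 and did not pass.

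In the anaphase-promoting complex list, 2 of 18 fell and none rose, with a median of -0.37. This share is not far above the 7.11% over all genes. The 2 that fell were Fbxo5, which encodes the inhibitor EMI1, and Ube2c, which encodes the E2 enzyme that starts ubiquitin chains. Fbxo5 had 1151 and 945 normalised reads in shPHF2 replicates 1 and 2, against 2939 in shControl (log2 fold change -1.49, SE 0.21; limma, adjusted p = 0.0069). Ube2c had 2592 and 1941 normalised reads in shPHF2 replicates 1 and 2, against 4877 in shControl. None of the 14 subunit genes of the complex itself passed, and their log2 fold changes ran from -0.64 for Anapc5 to 0.43 for Anapc2.

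Of 13 genes for the factors that act on G2 and M phase promoters, 3 fell and none rose, with a median log2 fold change of -0.48. The 3 were the MuvB subunit gene Lin9 at -1.46, the pocket protein gene Rbl1 at -1.28 and the MuvB partner gene Mybl2 at -1.26. Of all genes tested, 7.11% were called lower, and the share in this list was not tested against that. Foxm1, whose product activates Ccnb1, Plk1 and Cdc25b, had 2770 and 2036 normalised reads in shPHF2 replicates 1 and 2, against 3803 in shControl. Its log2 fold change of -0.68 did not pass (limma, adjusted p = 0.077). The NF-Y subunit genes Nfya, Nfyb and Nfyc had -0.61, -0.33 and 0.35, and none passed.

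Among 14 spindle checkpoint and kinetochore genes 10 fell and none rose, with a median log2 fold change of -1.02. Casc5, Ndc80 and Bub1 had the largest changes, at -1.31, -1.24 and -1.23. Of all genes tested 7.11% were called lower in shPHF2, as were 10.5% of those averaging 500 or more normalised reads. Replicate 2 was below replicate 1 for 13 of these 14, and the median difference between replicates was -0.44, beside -0.45 for the 10 mitotic entry genes. The 6 MCM helicase genes, which act in S phase, all fell, with a median log2 fold change of -1.27 and the largest changes in Mcm6, Mcm7 and Mcm3, at -1.39, -1.32 and -1.31. Their medians in the replicates were -1.21 in replicate 1 and -1.30 in replicate 2, a median difference of -0.14. The differences between these lists were not tested, and every comparison uses the same 3 libraries.

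**Figure D4:**
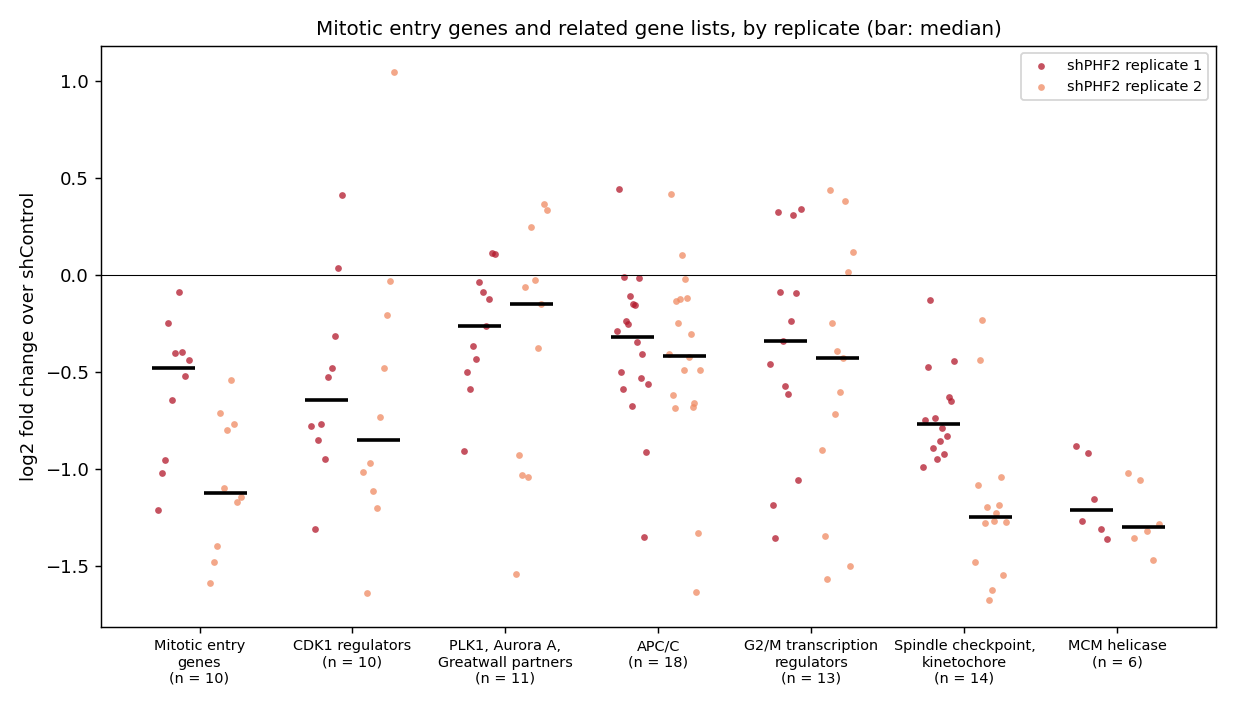
Log2 fold change over shControl (y axis) in shPHF2 replicate 1 and replicate 2 for the 10 mitotic entry genes and 6 related lists, 1 point a gene, with bars at the medians. The medians of the mitotic entry genes, -0.48 and -1.12, and those of the spindle checkpoint and kinetochore genes lie farther apart than those of the MCM helicase genes.

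Among 8839 other genes averaging 500 or more normalised reads, the nearest to the median pattern of the 10 genes over the 3 libraries were Slc38a1, Pcnt, Dync2h1, Knstrn and Dock11, by Euclidean distance between their log2 fold changes in the replicates. The nearest, Slc38a1, had 5572 and 3582 normalised reads in shPHF2 replicates 1 and 2, against 7854 in shControl, at a distance of 0.02. The farthest of the 5, Dock11, was at a distance of 0.05, and 13 genes lay within 0.1. A pattern over 3 libraries holds little detail, and none of these 5 passed the test.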

How the data were processed

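Per the labels' protocols, ribosomal RNA was depleted and libraries were made with a stranded kit. HISAT2, HTSeq, DESeq2 and mm10 are named in the submitters' processing notes, without versions, and the sources used here do not give the gene annotation or the strand setting. The deposited signal of each gene is its read count divided by the DESeq2 size factor of the library, by the authors. All values (100%) were whole multiples of the smallest value in their column within 0.001, so whole reads were recovered. The deposited table also holds the authors' log2 fold change, its standard error and Wald statistic as scores, and p-values. The 4 rows that name no gene, 61.4% to 61.5% of reads, were left out, and 0 library columns went unused.

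The test was limma 3.58.1 (mean-variance trend, R 4.3.3) on log2(value + 1) for the 14148 genes averaging 10 or more, two-sided, with Benjamini-Hochberg adjustment over all of them. Fold changes are on that scale. The fit had 1 residual and 6.94 prior degrees of freedom, so the single control is taken to vary as the shPHF2 libraries do. Replicates differed beyond the noise of counting, with a chi-square per degree of freedom of 58.9. The p-values measure only the spread between these samples, and for each gene most of its weight comes from the trend over all genes. Counting intervals of 95% are exact and conditional on the sum of reads. The test was also run on simulated data. There the control was drawn to vary as the shPHF2 libraries did, so that assumption was not checked. Alternatives used edgeR 4.0.16 and DESeq2 1.42.0 on recovered reads, other pseudocounts, filters and scalings, and a spline correction for GC content and exon length (99.2% of genes had both). Members and lists were chosen with earlier results of these data known. All 10 members are named, and from each other list the 3 called genes with the largest change, with others named after their values were seen.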

Additional observations from a re-analysis of the deposited data

How the results depend on the processing

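All 10 genes stayed lower in shPHF2 in all 11 alternatives with a test (110 of 110 values). In 96 of the 110 the call was the same, in 13 it was lost and in 1 it was gained. The losses were 3 each for Cdk1, Ccna2 and Ccnb1, with no filter on low values, without the limma trend and with quantile normalization, and those 3 plus scaling to total reads in genes for Ccnf. The gain was Plk1 by DESeq2 (adjusted p = 0.0498). Under the first 3 settings limma called 0 of all genes (2027 in the fit reported), 0 of the 10 (4), and 0 members of the CDK1 regulator (5), PLK1, Aurora A and Greatwall partner (2), anaphase-promoting complex (2), G2/M transcription (3), spindle checkpoint and kinetochore (10) and MCM helicase (6) lists. In the order no filter, no trend, quantile, unadjusted p was under 0.05 there for 3893 of 16977, 3300 of 14148 and 3700 of 14148 genes. Of the 10 genes, it was so for 4, 3 and 4. By edgeR 4 of the 10 were called, and by DESeq2 5. The PLK1, Aurora A and Greatwall partner count was also 0 with scaling to total reads in genes and with the GC and length correction. The cause of these losses was not tested. The median log2 fold change of the 10 ranged from -0.97 with the GC and length correction to -0.72 with quantile normalization. Leaving out a replicate left no test, and the median was -1.12 without replicate 1 and -0.48 without replicate 2. The median difference between replicates ranged from -0.49 to -0.45. No paired analysis was possible because shControl has 1 library, so the groups share fewer than 2 replicate numbers. Each of the 10 had at least 556 reads per library. The single control library and the spread between the 2 shPHF2 libraries both limit the test.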

Other observations

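The ratio of Ccnb1 to Ccnb2 was lower in both shPHF2 libraries than in the 1 shControl library. Per kilobase of annotated exon, Ccnb1 over Ccnb2 was 0.967 and 0.978 in shPHF2 replicates 1 and 2, against 1.58 in shControl. Cdk1 over Ccnb1, on the same scale, was 1.18 and 1.24 in shPHF2 replicates 1 and 2, against 1.41 in shControl. These ratios were chosen after the values were seen and have no test.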
